A study of Chrysanthemum x morifolium with 12 samples.

Results

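MIF2 (MINI ZINC FINGER 2) was represented by 6 probes of a custom oligonucleotide array for chrysanthemum (Chrysanthemum x morifolium), out of 176026 probes in all, each designed on 1 contig. The 6 probes, PD0028_132595, PD0028_125957, PD0028_105609, PD0028_064889, PD0028_043321, and PD0028_041425, carry the MIF2 name in the study's list of transcription factor probes with lower expression in FGD than in FG petals. They were therefore chosen on the FGD and FG petal arrays. Only the comparison of FW petals with FG leaves takes its difference from neither of those groups, although they entered the estimate of its spread. Whether several of the 6 contigs come from the same transcript is not known from the files, so the probes were not counted as independent measurements of different genes.

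RNA was taken from ray floret petals at stage 2, the middle of flower development, and from mature leaves, with 3 biological replicates and 1 array for each. FG (Feeling Green) is a cultivar with green petals, and FW (Feeling White) with white petals and FGD (Feeling Green Dark) with darker green petals are bud sports of it, that is, shoots that arose on FG by mutation and were propagated vegetatively. The leaves were from FG, all plants were grown in a greenhouse in natural daylight, and no agent was applied. The 4 groups are FW petals, FG petals, FGD petals, and FG leaves, and each color type is 1 clonal line.

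Mini zinc finger proteins are small plant proteins that carry the zinc finger of the zinc finger homeodomain family but lack the homeodomain. Through the zinc finger they can bind other members of the family and other zinc finger proteins. In Arabidopsis and tomato, MIF2 acts with KNUCKLES in a complex that represses WUSCHEL, the gene that keeps the stem cells of the floral meristem, and so takes part in ending meristem activity in the flower.

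The sequences at hand for chrysanthemum MIF2 are the primers the study designed for RT-qPCR of this transcript, and they are shown as the ends of the amplified stretch. They were not matched to any probe or contig sequence. The study chose the genes for RT-qPCR from its listed probes, so the primers are not independent of the probe names. The forward primer has 23 bases and a GC content of 52.2%, and the reverse primer has 21 bases and a GC content of 52.4%. Both are written 5′ to 3′.
MIF2 forward: ggtgagtgtcaaaggaaccatgc
MIF2 reverse: ccaccacccttctatggaagt
PD0028_041425 is the probe that the study marked for RT-qPCR. No RT-qPCR value was used here.

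MIF2 signal was present in FW and FG petals, low in FGD petals, and not well above background in FG leaves. Signals here are background-subtracted intensities, and levels are log2 intensities relative to the 75th percentile of the same array. By the scanner software's call, each of the 6 probes stood well above background on the 6 FW and FG petal arrays. In FGD petals, 4 probes passed on each of the 3 arrays and the other 2, PD0028_043321 and PD0028_041425, on none. No probe was well above background on any FG leaf array. No spot of the 6 probes was saturated or marked as an outlier.

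**Figure D1:**
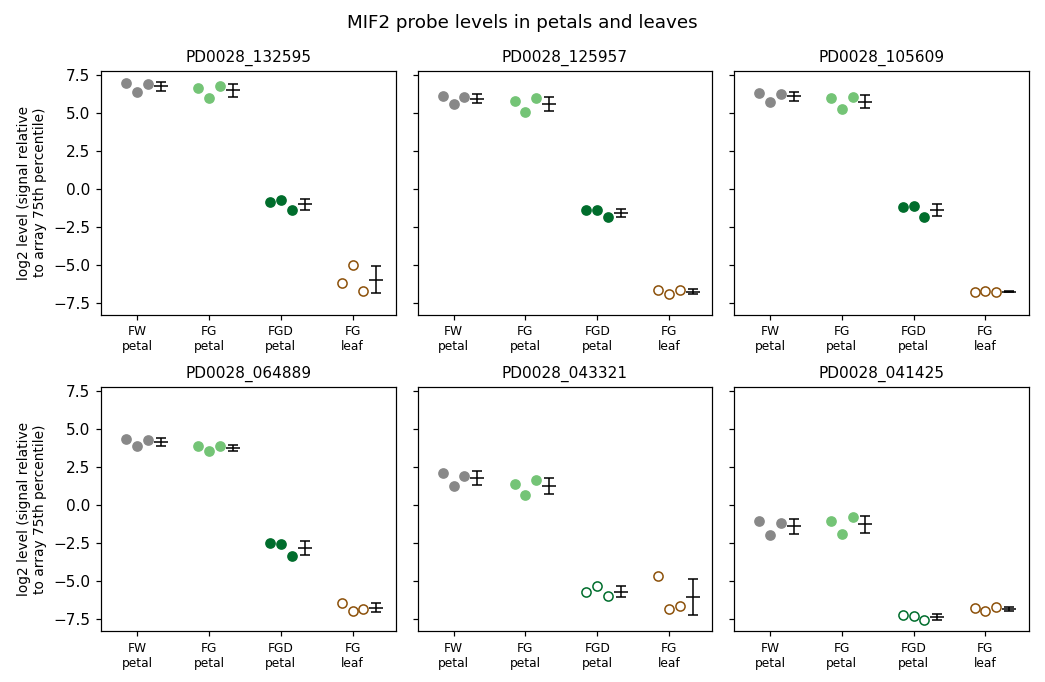
Level of each of the 6 MIF2 probes (1 panel each) in log2 units relative to the 75th percentile of the array, for FW, FG, and FGD petals and FG leaves. Each point is 1 array, filled where the probe was well above background and open where it was not, and the bar beside the points is the mean ± SD of the 3 arrays. FW and FG points overlap in every panel, the FGD points lie far below them, and all leaf points are open.

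Before the values, some facts of the arrays bear on them. The 75th percentile of the signal ranged from 308.1 to 346.6 on the 9 petal arrays and from 187.6 to 209.4 on the 3 leaf arrays, and 65.58 to 69.59% and 63.15 to 65.22% of probes, respectively, were well above background. Over the 12 arrays, the dimmest probe that passed as well above background had a signal of 7.856 to 9.812. Genes of chlorophyll (Chl) metabolism were read as tissue markers. The study had singled them out on these same arrays by their petal and leaf levels, so they are no independent check of the labels. Other Chl genes, such as HEMD and CHLG, for which the study reported no significant difference, were not read here. All 6 leaf markers (CHLH, CRD, HEMA1, PORC, HCAR, and NOL) were called lower in FW petals than in FG leaves, with a median difference of −4.44 on the log2 scale, and the levels of CHLH, a subunit of the enzyme that inserts magnesium in Chl synthesis, were 0.63 in FW, 2.67 in FG, and 3.70 in FGD petals and 6.24 in FG leaves. SGR, which acts in Chl breakdown and served as the petal marker, was higher in FW petals than in leaves by 3.09. The arrays lay on 3 slides. The FG petal arrays and FW replicate 1 were on slide 1, slide 2 held FW replicates 2 and 3 and FGD replicates 1 and 2, and slide 3 held FGD replicate 3 and the 3 leaf arrays.

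In FW petals, all 6 MIF2 probes were higher than in FG leaves. The signal of PD0028_132595 was 38560, 27370, and 35930 in FW petals and 2.552, 6.445, and 1.749 in leaves. The signal of PD0028_125957 was 21780, 15740, and 20510 in FW petals and 1.859, 1.734, and 1.826 in leaves. That of PD0028_105609 was 23970, 17030, and 23040 in FW petals and 1.723, 2.019, and 1.699 in leaves. For these 3 probes every FW value was at least 15740, and every leaf value was below the dimmest signal that passed as well above background on any array.

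The other 3 probes had smaller differences. PD0028_064889 gave 6348, 4787, and 5892 in FW petals and 2.183, 1.636, and 1.674 in leaves. PD0028_043321 gave 1340, 764, and 1168 in FW petals and 7.526, 1.827, and 1.847 in leaves, where replicate 1 stood above the other 2 without passing as well above background. PD0028_041425 gave 150.6, 82.37, and 136.5 in FW petals and 1.778, 1.671, and 1.76 in leaves. Every FW array lay above every leaf array for all 6 probes, as for 30.6% of the array, while the reverse held for 0 of 6 and for 38.8% of the array.

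Because the leaf signal was not well above background, the fold differences are lower bounds. They set the mean level in FW petals against the mean detection limit of the leaf arrays, that is, on each array the level of the dimmest probe that passed as well above background or the probe's own level, whichever was higher. Some spots brighter than the dimmest passing probe did not pass, such as those of NF-YB8 (8.652 to 8.842 in leaves, described below). Each bound therefore holds only for the limit so defined. MIF2 was at least 2569-fold higher in FW petals by PD0028_132595, at least 1614-fold by PD0028_105609, and at least 1465-fold by PD0028_125957. The bounds were at least 430.9-fold for PD0028_064889, at least 81.1-fold for PD0028_043321, and at least 9.11-fold for PD0028_041425. The size of each bound depends on how bright the probe was in petals, so the bounds do not rank the probes.

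The difference was tested with limma over all 176026 probes, with Benjamini-Hochberg adjustment over all of them. The fit held all 4 groups, so the FG and FGD petal arrays that chose the probes also entered the SEs and adjusted p-values. A fit of only the FW petal and FG leaf arrays also called all 6 probes. The fitted log2 difference, which takes the leaf signals as given, was 12.73 for PD0028_132595 (SE 0.41, 95% interval 11.83 to 13.64, limma adjusted p = 3.64e-09). It was 12.68 for PD0028_125957 (SE 0.24, limma adjusted p = 2.51e-10) and 12.82 for PD0028_105609 (SE 0.26, limma adjusted p = 3.83e-10). It was 10.91 for PD0028_064889 (SE 0.24, limma adjusted p = 5.63e-10), 7.81 for PD0028_043321 (SE 0.53, limma adjusted p = 7.29e-07), and 5.41 for PD0028_041425 (SE 0.30, limma adjusted p = 1.51e-07). PD0028_043321, with 1 leaf array apart from the other 2, had the largest SE of the 6.

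Thus 6 of 6 MIF2 probes were called higher in FW petals at an adjusted p under 0.05, where 28.8% of all probes were called higher and 34.3% lower. A probe listed as lower in FGD petals needed signal in FG petals. FW is a bud sport of FG, with petals of the same stage, so the choice may have favored signal in FW petals too. The shares over all probes do not allow for this. The median fitted difference of the 6 probes was 11.80, and 9.63 with each at its bound, beside a median of −0.19 over all probes. The median fell to 6.96 with normexp background correction and to 6.60 with a signal floor of 100, and with that floor PD0028_041425 was no longer called (limma adjusted p = 0.399). Being well above background on all 3 FW petal arrays and on no leaf array was a narrower class, which held 6203 probes or 3.52% of the array and all 6 MIF2 probes. In these whole organs, fewer cells with the transcript and less transcript per cell cannot be told apart. FW petal and FG leaf arrays shared no slide, and the comparison is also one of genotype and organ at once. An exact permutation test of 3 arrays against 3 cannot go below 0.1 (two-sided), so no test of a single probe outside the fit was made.

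**Figure D2:**
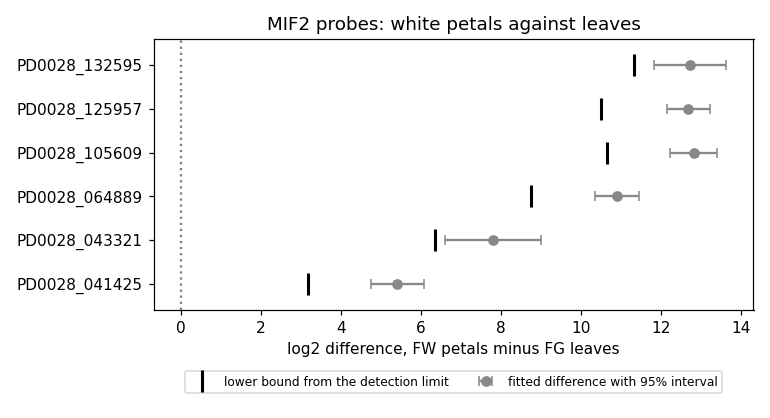
Difference between FW petals and FG leaves for each MIF2 probe on the log2 scale, with the fitted difference and its 95% interval (gray) and the lower bound from the detection limit of the leaf arrays (black tick). The bounds run from 3.19 for PD0028_041425 to 11.33 for PD0028_132595, all above the dotted line at 0.

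In FG petals, the parent of both bud sports, the MIF2 signals overlapped those in FW petals. PD0028_132595 gave 34050, 21570, and 37310 in FG petals, a mean level of 6.46 ± 0.43 (SD, n = 3) against 6.73 ± 0.30 in FW petals. PD0028_125957 gave 18260, 11400, and 21210, a level of 5.58 ± 0.47 against 5.92 ± 0.29, and PD0028_105609 gave 20770, 12780, and 22850, a level of 5.73 ± 0.45 against 6.06 ± 0.31. The FW means lay above the FG means by less than the SD of the FG arrays for each of these 3 probes.

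PD0028_064889 gave 5036, 4007, and 5003 in FG petals, a level of 3.76 ± 0.19 (SD, n = 3) against 4.16 ± 0.25 in FW petals. PD0028_043321 gave 898.4, 541.7, and 1076 in FG petals, a level of 1.23 ± 0.52 against 1.75 ± 0.46. PD0028_041425 was the exception in direction, with 161.6, 92.99, and 196.7 in FG petals and a level of −1.26 ± 0.56 against −1.41 ± 0.51 in FW petals.

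The difference of FW from FG petals was 0.28, 0.34, 0.33, 0.40, 0.52, and −0.15 on the log2 scale for PD0028_132595, PD0028_125957, PD0028_105609, PD0028_064889, PD0028_043321, and PD0028_041425, in that order. The FW and FG arrays overlapped for all 6 probes, whereas over the array 35.7% of probes had every FW array above every FG array and 14.8% the reverse. The median difference of the 6 probes was 0.34 and that of all probes 0.18. It moved between 0.08 and 0.51 when single arrays were left out. On slide 1, where FW replicate 1 lay beside the 3 FG arrays, the differences ranged from 0.20 to 0.87 with a median of 0.54. No test was made, because the FG arrays had served to choose the probes.

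In FGD petals, all 6 MIF2 signals were far lower than in FG petals, as the choice of the probes requires. PD0028_132595 gave 167.2, 180.3, and 130.3, a level of −1.03 ± 0.34 (SD, n = 3). PD0028_125957 gave 116.2, 115.4, and 94.85, a level of −1.57 ± 0.26. PD0028_105609 gave 137.3, 142.2, and 95.98, a level of −1.39 ± 0.41. In all 3, replicate 3, the FGD array on slide 3, gave the lowest signal.

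PD0028_064889 gave 54.49, 51.61, and 33.44 in FGD petals, a level of −2.82 ± 0.48 (SD, n = 3), and was still well above background on each array. PD0028_043321 gave 5.842, 7.602, and 5.353 and PD0028_041425 gave 2.071, 1.967, and 1.837, both not well above background. The MIF2 signal of FGD petals was thus low but measurable with 4 of the 6 probes.

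The FGD level was 179.4-fold lower than the FG level by PD0028_132595, 142.2-fold by PD0028_125957, 138.9-fold by PD0028_105609, and 96.1-fold by PD0028_064889. For the 2 probes not well above background the bound was a log2 difference of −6.40 (at least 84.2-fold lower) for PD0028_043321 and of −3.91 for PD0028_041425. The median log2 difference was −7.03, and −6.85 with those 2 at their bounds, beside 0.09 over all probes, and it was −5.99 with normexp and −6.17 with the signal floor. These values describe the choice and were not tested. The study listed transcription factor probes that differed by over 15-fold and also passed a limit on P. Among the MIF2 probes, PD0028_041425 lay closest to that fold limit by its bound, with a fitted difference of −6.11. Of the other listed lower transcription factor probes, MYB15 lay closest to it by fitted difference, at 15.57-fold lower, followed by RRTF1, at 17.85-fold. MYB15 was well above background on 1 of 3 FGD petal arrays. DREB1D passed on no FGD petal array, and its bound was at least 3.77-fold lower, which is under that limit. MIF2 probes that missed the limit cannot be given, because the array files pair no gene names with probes. On the whole array, 163 probes, or 0.0926%, had a fitted level over 15-fold lower in FGD than in FG petals. That count covers genes of every kind and uses the fold alone, unlike the study's list.

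Most probes with signal in petals and not in leaves were still well above background in FGD petals, as were 4 of the 6 MIF2 probes. On all 6 FW and FG petal arrays and on no leaf array, 5013 probes (2.85%) were well above background, the 6 MIF2 probes among them. Of these, 4133 were also well above background on all 3 FGD arrays and 204 on none, counts that hold 4 and 2 of the MIF2 probes. Their median difference between FGD and FG petals was −0.06, and 61 of them, or 1.22%, were over 15-fold lower in FGD petals. That count includes MIF2 by the choice of the probes.

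MIF2 also differed between the white and the dark green bud sport. The FW level was 217.4-fold above the FGD level by PD0028_132595, 180.5-fold by PD0028_125957, 174.8-fold by PD0028_105609, and 126.5-fold by PD0028_064889. It was at least 120.6-fold above it by PD0028_043321 and at least 13.5-fold by PD0028_041425. The FW and FGD arrays did not overlap for any of the 6 probes, as was so in this direction for 24.4% of the array. On slide 2 alone, with 2 arrays of each, the differences ranged from 5.69 to 7.47 on the log2 scale with a median of 7.12, beside 7.45 over all 6 arrays, which became 6.37 with normexp and 6.53 with the signal floor. FG and FGD petal arrays shared no slide, so slide 2 was the only one on which FGD petals and another petal type lay side by side. The FGD arrays had served to choose the probes, and no test was made.

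**Figure D3:**
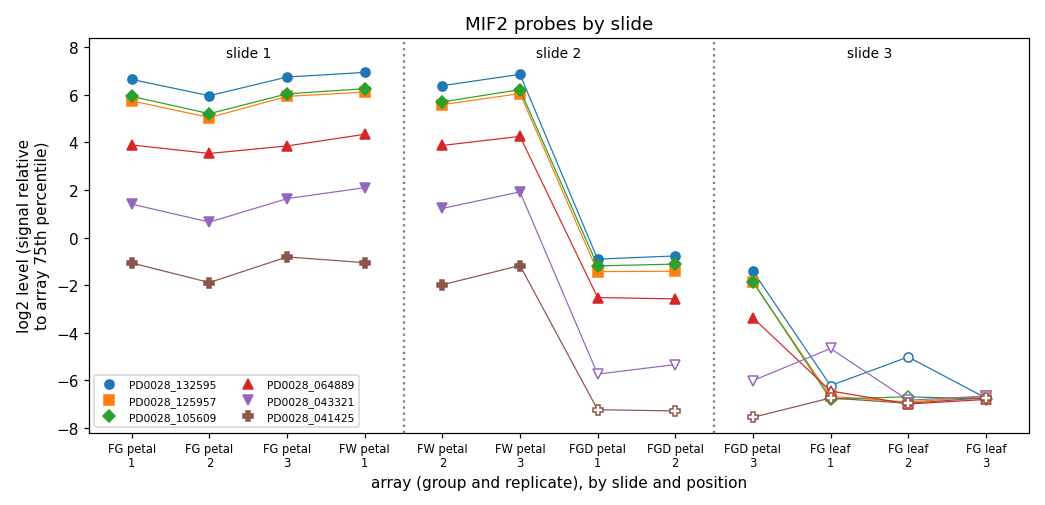
Level of the 6 MIF2 probes in log2 units relative to the 75th percentile on each of the 12 arrays, placed by slide (dotted lines) and by position on the slide. Filled symbols were well above background and open ones were not, and lines only join the points of a probe. Within slide 2 all 6 probes drop between the FW and the FGD petal arrays, by a median of 7.12.

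The leaf signals lay below those of FG petals for all 6 probes and below those of FGD petals for 4. Against FG petals of the same genotype, the leaf level was at least 2120-fold lower by PD0028_132595, at least 1282-fold by PD0028_105609, at least 1154-fold by PD0028_125957, at least 327.4-fold by PD0028_064889, at least 56.7-fold by PD0028_043321, and at least 10.09-fold by PD0028_041425. The leaf and FG petal arrays did not overlap for any of the 6 probes, where over the array 27.6% of probes had every leaf array below every FG petal array and 41.8% the reverse. The median difference was −11.43, and −6.59 with normexp and −6.23 with the signal floor. FG petals and FG leaves are the only pair of groups with the same genotype.

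Between FGD petals and FG leaves a difference could be given for 4 of the 6 probes. The leaf level was at least 11.8-fold lower by PD0028_132595, at least 9.23-fold by PD0028_105609, at least 8.11-fold by PD0028_125957, and at least 3.41-fold by PD0028_064889, with every leaf array below every FGD array for these 4 probes, as for 27.5% of the array, and the reverse for 38.1% of the array. PD0028_043321 and PD0028_041425 were not well above background in either group, and no difference is given. On slide 3, which held FGD replicate 3 and the 3 leaf arrays, the leaf mean minus the FGD array ranged from −4.91 to −3.38 for the 4 probes measured in FGD petals. The median on slide 3 over all 6 probes, −3.98, also takes in the 2 at background in both groups, as do the medians that follow. The median over all arrays, −4.45, was −0.60 with normexp background correction, where 2 of the 6 probes were higher in leaves, and −0.0446 with a signal floor of 100, and both of these settings raise dim signals.

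By these values, the order of the groups was FW and FG petals, then FGD petals, then FG leaves, for the 4 probes measured in FGD petals. FW and FG petals, as neighbors, overlapped. FGD petals and FG leaves shared the lowest place for the other 2 probes, which did not separate them from background. On these arrays the order of MIF2 was thus nearly the reverse of that of CHLH, except that CHLH separated FW from FG petals (0.63 against 2.67) and MIF2 did not. The low place of FGD petals was fixed by the choice of the probes. By RT-qPCR in later-stage petals of other white and green cultivars, the study found no correlation of MIF2 with Chl content.

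Within each petal group, 1 array was low on all 6 probes. FG replicate 2 was below the mean of its group for 6 of 6 probes, with a median deviation of −0.53 and a range from −0.63 to −0.22. FW replicate 2 was below its group mean for 6 of 6 probes, with a median of −0.35, and FGD replicate 3 likewise, with a median of −0.35, although 2 of its 6 probes were not well above background. Of the 96119 probes well above background on all 12 arrays, 1.58% lay at least as far below their group mean as this median on FG replicate 2. The shares were 3.47% on FW replicate 2 and 3.71% on FGD replicate 3. The 6 probes may share a transcript and so repeat 1 reading. The FGD replicate that was low was the one on slide 3, and the part of the slide in this was not tested. Over the 12 arrays, the Pearson correlation of a single probe with the mean level of the 6 ranged from 0.9457 to 0.9981, a description in which the 4 groups give most of the spread.

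The study listed 18 other transcription factor probes with MIF2, chosen on the same FGD and FG arrays, 4 lower and 14 higher in FGD petals. Because of that choice their direction in FGD petals is no independent evidence. Among the 4 listed as lower, 1 was called higher in FW petals than in FG leaves and 3 were called lower, beside 6 of 6 higher for MIF2. NF-YB8, a B subunit of the NF-Y complex that binds CCAAT boxes, gave 236.8, 112.4, and 160 in FW petals and 8.652, 8.753, and 8.842 in leaves, not well above background, which is at least 11.5-fold higher in FW petals (limma adjusted p = 0.000532). Its FGD signals were 6.303, 12.06, and 17.49, the last 2 well above background.

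The other 3 probes listed as lower were higher in leaves than in FW petals. DREB1D, which in Arabidopsis binds dehydration-responsive elements, differed by −2.30 between FW petals and leaves (limma adjusted p = 0.028), and RRTF1, an ethylene response factor that in Arabidopsis responds to redox state, by −2.02 (limma adjusted p = 0.0176). For DREB1D and RRTF1 the FW and leaf arrays overlapped. MYB15, an R2R3-MYB protein, differed by −1.76 (limma adjusted p = 0.00333). Its leaf level differed from that of FG petals by −2.22 and so was the lower of those 2. MYB15 was also the one of the 4 that was low in FW petals, with 4.569, 14.53, and 6.95 against 119.6, 138.2, and 140.7 in FG petals, and in both FW and FGD petals it was well above background on 1 of 3 arrays, so these groups cannot be ranked. MIF2, in contrast, was well above background on all 3 FW petal arrays by all 6 probes, at levels that overlapped those of FG petals. By PD0028_041425 the FW level was only −1.41.

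Of the 14 probes listed as higher in FGD petals, 7 were called lower in FW petals than in FG leaves, 3 were called higher, and 4 were not called. The 3 called higher were a C2H2 zinc finger probe (log2 difference 2.27, limma adjusted p = 0.00812), an FHA domain probe (2.24, limma adjusted p = 6.47e-05), and PD0028_037235 of SHN3 (limma adjusted p = 0.035), which was well above background on 2 FW arrays and no leaf array and is given no fold difference. RAD-like 6 encodes a small single-MYB protein related to RADIALIS, which in snapdragon sets the asymmetry of the flower. Its probe PD0028_092972 gave 20.74, 56.55, and 30.55 in FW petals, 15.61, 43.36, and 9.26 in FG petals, 2156, 1744, and 1053 in FGD petals, and 11760, 13780, and 6915 in leaves, the reverse of the order of MIF2. It was 508-fold lower in FW petals than in leaves (limma adjusted p = 4.24e-07), and PD0028_006794, a second RAD-like 6 probe, was at least 440.3-fold lower (limma adjusted p = 1.25e-07). RAD-like 5 was also high in leaves, with PD0028_048158 lower in FW petals by 63.3-fold (limma adjusted p = 3.84e-07). Unlike any MIF2 probe, it separated the white petals from FG petals, with 54.63, 60.75, and 32.63 in FW petals and no FG array well above background.

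**Figure D4:**
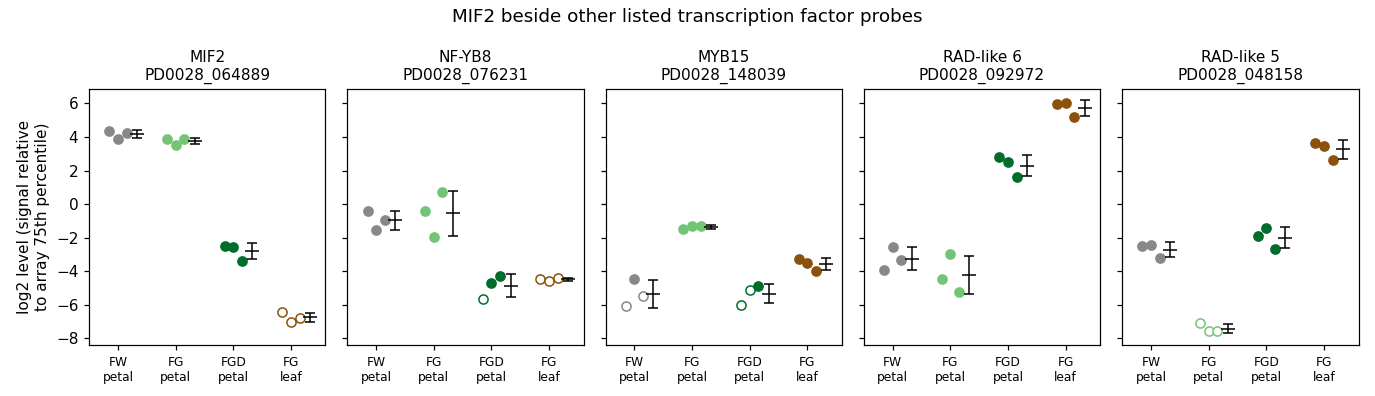
Levels in log2 units relative to the 75th percentile of the array for 1 MIF2 probe and 4 other transcription factor probes listed by the study on FGD and FG petals, in FW, FG, and FGD petals and FG leaves. Each point is 1 array, filled where well above background, with the mean ± SD of 3 arrays beside it. MIF2 and NF-YB8 are high in FW and FG petals, MYB15 is high in FG petals alone among the petals, and RAD-like 6 runs from low in FW and FG petals to a mean of 2.30 in FGD petals and 5.73 in leaves.

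Across the array, the probes whose pattern was most like that of MIF2 were sought by the Pearson correlation over the 12 arrays with the mean level of the 6 probes, among 70197 other probes with a mean signal of at least 100. Of these, 592 (0.843%) had a correlation over 0.95 and 267 under −0.95. The 12 points fall into 4 groups, and a Pearson correlation therefore follows the relative spacing of the group means and not the size of the differences. PD0028_120749 (r = 0.9966) had a difference between FGD and FG petals of −7.17, with 3594, 1886, and 2308 in FW petals, 4391, 2081, and 5716 in FG petals, 26.13, 21.56, and 25.81 in FGD petals, and 2.499, 1.644, and 1.728 in leaves, where it was not well above background. Its mean level was higher in FG petals (3.45) than in FW petals (2.99). PD0028_075912 (r = 0.9966) also fell from FW and FG petals to FGD petals and then to leaves, over a far smaller range. Its mean levels were 2.96 in FW, 2.84 in FG, and 1.25 in FGD petals and 0.61 in leaves.

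The probes most opposite to MIF2 were PD0028_066956 (r = −0.9934) and PD0028_076281 (r = −0.9921). The mean levels of PD0028_076281 were −0.89 in FW, −0.71 in FG, and 0.91 in FGD petals and 1.93 in leaves. By Spearman correlation, 851 probes were over 0.95, and PD0028_120749 (0.9091) was not among them, at rank 3250, while PD0028_075912 (0.972) was, at rank 99. These 4 probes have no gene name in the sources used here. Among the listed transcription factors, the RAD-like 6 probes had correlations of −0.9824 and −0.9839 with MIF2, NF-YB8 had 0.9037, and MYB15 had 0.20.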

How the data were processed

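Cy3-labeled RNA of 12 samples was hybridized to custom Agilent arrays by the 1-color method. Spot intensities deposited by the authors came from Feature Extraction (version 10.10.1.1 per the file headers), which subtracts background and does not scale arrays to each other. A log2 table that the authors deposited gave the same differences between groups as the intensities with outlier spots kept, to within 3.2e-05.

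Levels are log2 intensities minus the 75th percentile of the array they belong to. The 4854 control spots were left out, and 7 to 37 outlier spots on an array were treated as missing. No signal cutoff was applied in the main fit, because MIF2 could pass one only through the groups where it is high. The search for probes of like pattern did use one, a mean signal of at least 100. All 176026 probes were fitted with limma 3.58.1 (R 4.3.3), with 1 mean per group and Benjamini-Hochberg adjustment, and the fit was tested on simulated data. Groups and replicates came from the labels. No 2 arrays held identical values. The replicates are described as biological, but how plants were divided among them is not given in the sources used here, so p-values measure the spread between these samples. Figures were drawn with matplotlib 3.10.9.

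The probes and lists were chosen with earlier results of these data known. The probes named are the 6 MIF2 probes, the other 18 listed transcription factor probes, Chl genes as tissue markers, and the 2 probes most alike and 2 most opposite to MIF2. Alternatives were quantile normalization, median centring, the authors' log2 table, normexp background correction (offset 50, on the median signal, since the files hold no mean signal), a signal floor of 100, outlier spots kept, filters on low signal, a fit of only the groups compared, a trended and robust prior, slide or replicate number as a block, Spearman correlation for likeness, and leaving out each array. Probe and contig sequences were not used here.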

Additional observations from a re-analysis of the deposited data

Results flagged for a closer look

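For 2 MIF2 probes, every FW petal array lay above and every FGD petal array below the mean of the FG petal arrays. The FW mean was higher than the FG mean by 0.34 on the log2 scale for PD0028_125957 and by 0.40 for PD0028_064889, and the FGD mean differed from it by −7.15 and −6.59. The difference between these directions was not tested. The FGD direction is fixed by the choice of the probes, and the FW and FG arrays overlapped for both. Groups of 3 arrays were not screened for single outlying arrays.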

How the results depend on the processing

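All 6 MIF2 probes were called higher in FW petals than in FG leaves under every alternative except 2. With a signal floor of 100, PD0028_041425 differed by 0.30 (limma adjusted p = 0.399) and 5 were called, and with a mean signal of at least 100 that probe was not tested and 5 were called. Over its alternatives, the adjusted p of PD0028_041425 ran from 4.17e-08 to 0.399, and that of the other 5 probes was at most 0.00149. The median difference of FW petals from leaves was 12.28 with quantile normalization, 6.96 with normexp, 6.60 with the floor, and 11.01 with slide as a block. For FGD against FG petals it was −5.99 with normexp, −6.17 with the floor, and −6.42 with slide as a block. For leaves against FG petals it was −11.93 with quantile normalization, −6.59 with normexp, −6.23 with the floor, and −10.45 with slide as a block. For FW against FGD petals it was 6.37 with normexp and 6.53 with the floor. For leaves against FGD petals it was −4.85 with quantile normalization, −0.60 with normexp, −0.0446 with the floor, and −3.98 with slide as a block. The medians for this pair take in PD0028_043321 and PD0028_041425, which were not well above background in either group. Normexp with its offset and the floor raise dim signals by construction. Leaving out single arrays gave 6 to 6 calls and medians of 11.62 to 11.95 for FW petals against leaves, −7.30 to −6.83 for FGD against FG petals, 0.08 to 0.51 for FW against FG petals, −11.62 to −11.28 for leaves against FG petals, 7.25 to 7.65 for FW against FGD petals, and −4.68 to −4.25 for leaves against FGD petals. Replicate numbers only share a name, since the deviations of FW and leaf arrays of the same number correlated at −0.02, −0.02, and −0.21. Over all pairs of groups these correlations ran from −0.30 to 0.32, the highest between FW and FG replicate 2, and no pair of groups was over 0.1 for all 3 numbers. With the replicate block 6 of 6 probes were called. Over the array, 50716 probes were called higher and 60335 lower, against 32014 and 25202 with the floor, 38894 and 112640 with normexp, and 33858 and 23637 with a mean signal of at least 100. Quantile normalization moved the share called higher from 45.7% to 56.8% of calls and the median of all probes from −0.19 to 0.04. The number of arrays and the leaf signals at background limit the precision.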
